A study of Mus musculus with 18 samples.

Results

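Gene expression was compared between mouse primordial germ cell-like cells (PGCLCs) and aggregates grown without PGC-promoting cytokines, both taken at day 6 from wild-type E14Tg2a cells, an established mouse embryonic stem cell (ESC) line. The comparison used 4 of the 18 libraries of the series, 2 in each group, and every gene of the count table, so that no gene was chosen by its level. ESCs kept in 2i/LIF had been converted into epiblast-like cells (EpiLCs) with Activin A and Fgf, and the EpiLCs were then aggregated in suspension in GK15 medium. Cultures with cytokines received BMP4, BMP8a, SCF, LIF and EGF, and the other cultures received none of them. The 2 wild-type EpiLC libraries are quoted as the starting level, with no test. TET TKO cells of the same line, in which the open reading frames of Tet1, Tet2 and Tet3 were deleted, were used for 1 further comparison at day 6, with 2 libraries with cytokines and 2 without. Which TKO clone was sequenced is not given in the labels, whereas the study's methods name a single clone per genotype for differentiation assays. With a single clone, effects of genotype and of clone cannot be told apart. The study calls the 2 libraries of a group biological replicates. The labels call all day 6 samples aggregates, whereas the study describes the wild-type cells with cytokines as sorted for SSEA1 and CD61 and all others as collected whole. The sort and the cytokines therefore cannot be told apart in any difference below, and in bulk RNA fewer cells of a type and less RNA per cell cannot be told apart either.

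PGCs are the founders of sperm and eggs. In the mouse embryo BMP signals direct a few epiblast cells to this fate, and the transcription factors Prdm1, Prdm14 and Tfap2c then repress somatic genes and restore part of the naive pluripotency network. Genes of later germ cells, among them Ddx4 and Dazl, are held silent by promoter DNA methylation and repressive chromatin in somatic cells. Epiblast cells that receive no inductive signals tend towards a neural fate in culture.

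The day 6 libraries held 26130723 and 28810831 counts with cytokines and 33893720 and 13195593 without, within a range of 11286050 to 41257861 over the series. The ribosomal RNA locus Rn45s took 33.7 and 36.4% of the counts with cytokines and 22.3 and 18.3% without, although ribosomal RNA had been depleted (log2 fold change of 1.09 ± 0.36 (SE), adjusted p = 0.0185 in edgeR's quasi-likelihood test, and 1.03 and no longer past the test without the second library with cytokines). The part of this locus in other differences was not tested beyond leaving it out of the fit. The median log2 fold change of all genes tested was 0.0086, so that a list is read below against a value close to 0.

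Of 25239 genes listed, 16582 had enough counts to be tested. With cytokines, 4916 genes (29.6%) were higher and 4743 (28.6%) were lower at an adjusted p below 0.05, the limit called the test from here on, and 2105 (12.7%) and 2329 (14.0%) of these also passed a log2 fold change of 2 in size. Counts of list members below are to be read beside the shares of 29.6% and 28.6%. The median log2 fold change was 3.77 among the 2105 genes and -3.66 among the 2329. The libraries of the groups did not overlap for 2099 and 2284 of them. These genes were chosen by the difference between the same libraries, so this separation is no separate support. No count at all was found without cytokines for 298 of the higher genes, and none with cytokines for 132 of the lower genes. Apart from Rn45s, the higher genes held 10.1 and 10.4% of the normalised counts of the libraries with cytokines against 1.21 and 1.15% of those without. The lower genes held 1.27 and 1.43% with cytokines against 19.4 and 13.5% without.

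**Figure D1:**
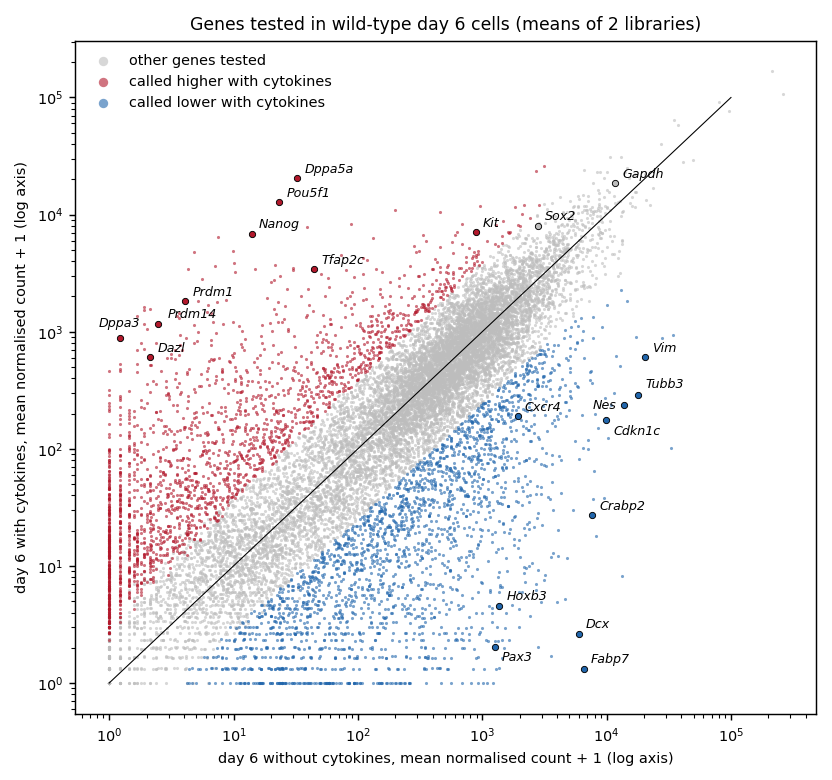
Mean normalised count plus 1 of each gene tested in the 2 day 6 libraries with cytokines (vertical, log axis) against the 2 without (horizontal, log axis), without Rn45s. Red and blue points are the 2105 and 2329 genes past the test and a log2 fold change of 2, and the line marks equal levels: Dppa5a, Pou5f1 and Nanog lie far above it and Fabp7, Dcx and Crabp2 far below.

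The 12 genes with the largest log2 fold changes among well-counted genes included genes known from germ cells and from pluripotent cells. Levels below are counts divided by each library's size factor, in the order of the first and second library. For 7 of the 12 the cytokine-free libraries held no count, and a fold is then a lower bound, set from 3 counts over the group. Dppa2, a chromatin-associated factor of pluripotent cells and early germ cells, stood at 480.5 and 440.1 with cytokines and 0 in both libraries without, at least 470.2-fold higher. Fkbp6, a co-chaperone of the meiotic and piRNA machinery, stood at 311 and 318 against 0 in both libraries, at least 322-fold higher. Both genes thus separated the groups without any count on the cytokine-free side. Stra8, which acts at the entry into meiosis, was at least 249-fold higher, Aurkc, a kinase of meiotic cells, at least 221-fold, and the long noncoding RNA gene AU015836 at least 237-fold. The transporter gene Slco4c1 and the long noncoding RNA gene Panct2 were at least 291-fold and 212-fold higher, but they overlap on the genome and were counted without regard to strand, so their reads cannot be told apart. The other five were Dppa3, Tcl1, Rhox6, Dnmt3l and Lefty1. Lefty1, an inhibitor of Nodal signalling, stood at 1961 and 1111 with cytokines, 1.81 and 0 without and 7281 and 3953 in EpiLCs. Rhox6, a homeobox gene of germ cells and placenta, stood at 706 and 351 against 0.453 and 0, with reads that can be split with its close paralogue Rhox9.

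At the other end, all 12 genes of the most negative log2 fold changes were high only in the cytokine-free libraries, and 9 of them had no count with cytokines. Fabp7, the fatty acid-binding protein of radial glia, stood at 0 and 0.643 with cytokines and at 3309 and 9819 without, a ratio of 15381 (95% counting interval 2760.2 to 607569). Mir124-2hg, host of a microRNA abundant in neurons, was at least 1361-fold lower with cytokines. Dbx1, a homeobox gene of ventral interneuron progenitors, was at least 1363-fold lower, though its cytokine-free libraries differed, at 1814 and 225. Neuronal genes made up most of the rest. Slc17a6, the vesicular glutamate transporter VGLUT2, was at least 677-fold lower, and Cartpt, a neuropeptide precursor, at least 771-fold. Dcx, a microtubule-binding protein of migrating neurons, stood at 0.695 and 2.57 with cytokines against 9404 and 2530.3 without. Pantr1, Stmn4, Uncx, Nhlh2, Trim9 and Pcdhb16 completed the set, the last of them with near-identical paralogues in its gene cluster.

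Genes of PGC specification were higher with cytokines in 16 of 20 cases (29.6% of all genes were higher), lower in 1 (2 without the first cytokine-free library) and not past the test in 3, with a median log2 fold change of 4.84 against 0.0086 for all genes. Prdm1, the repressor of the somatic programme, stood at 1899.6 and 1755 normalised counts with cytokines and 4.99 and 1.16 without, a log2 fold change of 8.91 ± 0.51 (SE) with adjusted p = 2.39e-09. Prdm14, which restores pluripotency genes in PGCs, stood at 1295 and 1046 against 1.81 and 1.16, a log2 fold change of 9.44 ± 0.58 (SE) with adjusted p = 5.18e-09. Tfap2c, encoding AP2γ, stood at 4013 and 2851 against 29 and 57.9, a log2 fold change of 6.43 ± 0.30 (SE) with adjusted p = 5.03e-10. All 3 regulators were also far lower in EpiLCs, where Prdm1 stood at 73.9 and 53.9, Prdm14 at 3.21 and 0.556 and Tfap2c at 19.3 and 21.1. Dppa3 (Stella), which protects DNA methylation marks in the early embryo and marks PGCs, had 1 count in the cytokine-free libraries and stood at 901 and 871 with cytokines, a ratio of 2718 (95% counting interval 487 to 107409). Dnd1, an RNA-binding protein needed for PGC survival, stood at 861 and 734 against 15.4 and 16.2, with the overlap of Wdr55 not resolved. The translational regulator Nanos3 stood at 239 and 142 against 56.7 and 35.9, a log2 fold change of 2.06 ± 0.39 (SE) with adjusted p = 3.31e-04, so that its level without cytokines was not near 0.

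The pluripotency factors of the same list separated the groups as widely. Nanog stood at 6537 and 7239 with cytokines, 16.8 and 9.26 without and 423 and 359 in EpiLCs, with a log2 fold change of 8.96 ± 0.40 (SE) with adjusted p = 4.26e-10. Pou5f1 (Oct4) stood at 13969 and 11621, 39 and 5.79 and 18550.0 and 17082 in the same order, with a log2 fold change of 8.98 ± 0.61 (SE) with adjusted p = 1.23e-08. Sox2, which neural progenitors also express and whose locus lies within Sox2ot, differed less, at 7721 and 8373 against 2875 and 2757, with a log2 fold change of 1.55 ± 0.30 (SE) with adjusted p = 4.08e-04. Dppa5a (9.24), Ifitm1 (8.71) and Ifitm3 (5.33) had large log2 fold changes, but close paralogues make their counts uncertain. Alpl, the alkaline phosphatase used to stain PGCs, was higher at a log2 fold change of 4.34 and Sall4, a zinc finger factor of germ and stem cells, at 3.65. Kit, the receptor of SCF, stood at 7481 and 6649 with cytokines and at 1253 and 521 without, a log2 fold change of 3.03 ± 0.51 (SE) with adjusted p = 1.13e-04, and at 116 and 176 in EpiLCs. Kit mRNA was thus present in both day 6 groups.

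Cxcr4, the receptor that guides migrating PGCs, went the other way. It stood at 211 and 166 with cytokines and 2041 and 1803 without, a log2 fold change of -3.31 ± 0.34 (SE) with adjusted p = 8.23e-07, and neural progenitors and definitive endoderm also express it. Lin28a passed the test only narrowly (1497 and 1407 against 1114 and 659, a log2 fold change of 0.75 ± 0.30 (SE) with adjusted p = 0.0438), and the call was lost without any of 3 of the 4 libraries, with log2 values of 0.71 and 0.80 without the first or second library with cytokines and 0.43 without the second cytokine-free library, while it was 1.18 without the first. T (Brachyury) and Fgf8, early mesoderm genes with a role in PGC induction, and Kdm1a, a histone demethylase, did not pass the test. CD61, one of the surface proteins used for the sort, is encoded by Itgb3, which stood at 537 and 443 with cytokines and 44.9 and 6.95 without. Fut9, which makes the SSEA1 carbohydrate, stood at 740.5 and 649 against 144 and 111, whereas Fut4, which can also make it, stood at 17.4 and 18.7 against 40.8 and 16.2. These levels check the label of the sorted cells and are no finding about it.

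**Figure D2:**
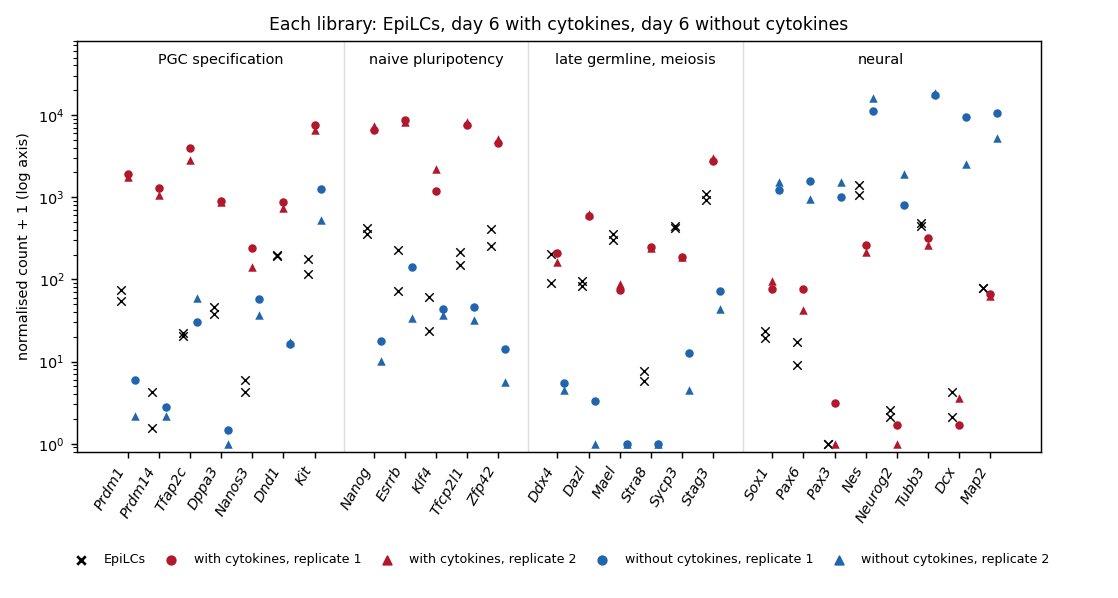
Normalised count plus 1 (log axis) of 26 genes in each wild-type library, by group of genes: crosses are EpiLCs, red marks day 6 with cytokines and blue marks day 6 without, with circles for the first and triangles for the second library. Red marks lie above blue marks for the PGC, naive, late germline and meiosis genes and below them for the neural genes.

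All 20 members of the naive pluripotency list were higher with cytokines, with a median log2 fold change of 7.65. No cytokine-free library exceeded 140.1 normalised counts for any of them, and no library with cytokines fell under 440.1. The summed level of the list was 55044 and 56717 with cytokines against 498 and 193 without. Tfcp2l1, a transcription factor downstream of LIF, stood at 7564 and 8131 against 45.3 and 31.3, with a log2 fold change of 7.67 ± 0.46 (SE) with adjusted p = 3.77e-09. Esrrb, an orphan nuclear receptor of the naive network, stood at 8563 and 8172 against 140.1 and 32.4, with a log2 fold change of 6.55 ± 0.79 (SE) with adjusted p = 4.48e-06. Zfp42 (Rex1), a common marker of naive ESCs, stood at 4575 and 5146 against 13.1 and 4.63, with a log2 fold change of 8.91 ± 0.43 (SE) with adjusted p = 8.36e-10. Klf2, Klf4 and Klf5, Krüppel-like factors that sustain naive pluripotency, had log2 fold changes of 7.94, 5.44 and 6.94. Tbx3, a T-box factor of the same network, differed between the libraries with cytokines, at 2183 and 4063, and its log2 fold change of 5.84 became 9.40 without the first cytokine-free library, which held 93.8 of its normalised counts against 4.63 in the second.

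In 16 of the 20 genes both EpiLC libraries lay below both libraries with cytokines, which means that most naive genes were above their starting level. Tfcp2l1 stood at 214 and 147 and Klf4 at 59.4 and 22.2 in EpiLCs. For Utf1 and Fgf4, genes of pluripotent cells in general, the EpiLC libraries were the highest, at 9379 and 8299.9 and 2684 and 2610.4, against 5375 and 4201 and 995 and 1409 with cytokines and 7.71 and 0 and 11.8 and 0 without.

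The formative and primed list, which covers the state of EpiLCs, had no common direction, with 7 of 15 members higher, 5 lower and 3 not past the test. Of all genes tested, 29.6% were higher and 28.6% lower. Fgf5, a marker of the epiblast, was close to absent in both day 6 groups (41.7 and 18.7 with cytokines, 3.17 and 0 without) compared with 1839 and 2354 in EpiLCs. Dnmt3b, a de novo DNA methyltransferase, likewise stood at 437 and 494 and 267 and 337 against 42663 and 48315 in EpiLCs. Pou3f1 (Oct6), shared by primed and neural cells, was lower with cytokines at 40.3 and 41.8 against 462 and 619.5, a log2 fold change of -3.67 ± 0.33 (SE) with adjusted p = 1.95e-07. Sox3, Sox4 and the N-cadherin gene Cdh2, which neural cells express as well, were lower at log2 fold changes of -5.46, -5.22 and -5.83. The ETS factors Etv4 and Etv5, targets of FGF signalling, were higher at 4.25 and 5.68. Otx2, a factor of epiblast and forebrain, did not pass the test, and its cytokine-free libraries, at 10.4 and 594, lay on either side of the 308 and 317 with cytokines. Without the second library with cytokines 4 members were higher, and without the first cytokine-free library 8 were lower. With the 4 libraries compared fitted alone, 3 were higher.

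Late germline and piRNA genes were higher with cytokines in 19 of 26 cases and lower in 3. Their median log2 fold change was 6.19 (5.53 with the genes of no count in a group set at their bound). Meiosis genes were higher in 15 of 19 cases and lower in none, with a median of 4.0. Dazl, an RNA-binding protein required for germ cell development, stood at 583 and 631 with cytokines and 2.27 and 0 without, a log2 fold change of 8.51 ± 0.75 (SE) with adjusted p = 1.76e-07. Ddx4 (Vasa), an RNA helicase of germ cells, stood at 211 and 162 against 4.53 and 3.47, a log2 fold change of 5.47 ± 0.45 (SE) with adjusted p = 9.40e-08. Mael, a piRNA pathway protein, had no count without cytokines and stood at 73 and 86.2 with them, at least 81.7-fold higher. Piwil2, a PIWI protein that binds piRNAs, stood at 470.0 and 405 against 7.71 and 1.16, with Sohlh2, a transcription factor of gonadal germ cells, at 695 and 716 against 1.81 and 0. Rpl39l has a near-identical copy elsewhere and is uncertain. The Tudor domain genes divided, with Tdrd5 and Tdrd12 higher at log2 fold changes of 7.38 and 6.53, and Tdrkh and Tdrd7 lower at -2.49 and -1.38. The call of Tdrd7 was lost without the second library with cytokines (-1.07). The helicase gene Ddx25 was the third of the lower members, at -1.75.

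Among meiosis genes, Syce1, a central element protein of the synaptonemal complex, was at least 135-fold higher, with 139 and 125 against no count. Sycp3, of the lateral element, stood at 187 and 189 against 11.8 and 3.47, a log2 fold change of 4.42 ± 0.41 (SE) with adjusted p = 2.98e-07, and Stag3, a meiotic cohesin subunit, at 2783 and 2988 against 71.2 and 42.8, a log2 fold change of 5.65 ± 0.28 (SE) with adjusted p = 1.06e-09. Sycp3 overlaps Chpt1 and Stag3 overlaps 2 further genes, and these reads were not separated by strand. Rec8, Sycp1, Msh5 and Mei1 did not pass the test. Sycp1 stood at 42.4 and 70.1 with cytokines and 84.3 and 23.2 without, so that the partners of a synaptonemal complex did not move as a unit, and Spo11, which makes the meiotic DNA breaks, had too few counts to be tested.

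Most of these genes were already detected in EpiLCs. Of the 34 members of both lists that were higher, 33 had both EpiLC libraries above both cytokine-free libraries. The 34 were chosen as lower without cytokines in these data, which favours such an outcome. Some stood close to 0 in EpiLCs, such as Asz1 at 3.21 and 2.22 and Spesp1 at 1.61 and 3.89. Against the libraries with cytokines, both EpiLC libraries were higher for 11 genes and lower for 16. Mael stood at 297 and 357 in EpiLCs and at 73 and 86.2 at day 6 with cytokines, Rnf17, a Tudor domain protein, at 1065 and 1038 and 1075 and 965, and Sycp3 at 449.8 and 419 and 187 and 189. Dazl went from 81.9 and 93.9 in EpiLCs to 583 and 631, and Stra8 from 4.82 and 6.67 to 249.6 and 237. A difference between the day 6 groups in these lists therefore included genes at or under their EpiLC level with cytokines.

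The promoters of late germline and meiosis genes are shown because E-box and E2F-type motifs are known sites of repressors that silence germline genes in other cells. RefSeq promoters (250 bases before to 50 after the start, build GRCm38.p6) were matched for 27 of the 33 members that passed both limits. The palindromic E-box CACGTG was present in 7 of the 27 (25.9%) against 7.24% of all 27025 promoters of the table, and GGCGGGAA, read on both strands, in 2 (7.41%) against 2.24%. The extended E-box TCACGTGA, which contains CACGTG, was in none of the 27 and in 1.01% of all. The other E-box CAGCTG was in 14.8% against 16.1%, CATCTG in 11.1% against 17.2%, the AP2-type motif GCCNNNGGC in 25.9% against 16.5%, and the octamer ATGCAAAT in none against 1.75%. The table matched under 80% of the genes of the wider gene sets, so the same comparison over all higher or lower genes is void. CACGTG and GGCGGGAA both contain CG, and the CG content of these promoters was not compared with that of all promoters. Whether the shares are particular to the motifs was therefore not tested. A match is a description of the letters and no evidence of binding.

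The stretches around each match in these genes were the following.
Mael (chr1:166238937-166238992, - strand): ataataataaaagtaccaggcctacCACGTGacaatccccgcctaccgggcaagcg
Mov10l1 (chr15:88982744-88982778, + strand): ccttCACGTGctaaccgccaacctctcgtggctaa
Hormad1 (chr3:95559556-95559676, + strand): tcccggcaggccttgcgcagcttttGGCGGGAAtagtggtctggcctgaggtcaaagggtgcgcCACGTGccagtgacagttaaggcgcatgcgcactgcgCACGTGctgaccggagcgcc
Taf7l (chrX:134476509-134476564, - strand): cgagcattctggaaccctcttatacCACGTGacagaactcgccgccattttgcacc
Stag3 (chr5:138280314-138280369, + strand): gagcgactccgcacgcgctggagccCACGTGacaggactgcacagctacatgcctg
Ddx4 (chr13:112652415-112652472, - strand): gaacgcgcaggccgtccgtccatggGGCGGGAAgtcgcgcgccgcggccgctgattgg
Ddx4 (chr13:112652311-112652364, - strand): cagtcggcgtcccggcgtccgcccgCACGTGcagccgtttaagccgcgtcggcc
Sycp3 (chr10:88459498-88459574, + strand): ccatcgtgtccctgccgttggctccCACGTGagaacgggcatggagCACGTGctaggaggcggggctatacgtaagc

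The capitals mark CACGTG or GGCGGGAA, and each stretch is read 5′ to 3′ on the strand of the gene, from bases before its start. Hormad1, a protein of meiotic chromosome axes, had 2 matches to CACGTG and 1 to GGCGGGAA and stood at 93.2 and 105 with cytokines and 0.453 and 0 without. Taf7l, a germ cell variant of a general transcription factor subunit, stood at 49.4 and 49.5 against 0.907 and 0, and Mov10l1, a piRNA helicase, at 345 and 279 against 0.907 and 0. Dazl and Stra8, with larger changes than Ddx4, held neither motif in the window.

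Enzymes of DNA methylation moved in both directions, with 9 of 14 members higher and 3 lower. Dnmt3l, the cofactor of de novo methylation in germ cells, stood at 1429.5 and 1824 with cytokines and 1.81 and 0 without, a log2 fold change of 10.22 ± 0.68 (SE) with adjusted p = 9.94e-09, with reads shared with the overlapping Aire not separated. Dnmt3a was lower at 1302 and 1178 against 3752 and 3372, a log2 fold change of -1.48 ± 0.28 (SE) with adjusted p = 3.64e-04, and stood at 18147 and 14657 in EpiLCs. The maintenance methyltransferase Dnmt1 was higher (1.0) and its partner Uhrf1, at 2997 and 3709 against 2271 and 3622, did not pass the test. The TET dioxygenases, which oxidise 5-methylcytosine, differed in direction. Tet1 stood at 12106 and 11504 with cytokines against 1304 and 595 without, a log2 fold change of 3.67 ± 0.34 (SE) with adjusted p = 3.43e-07. Tet2 stood at 3114 and 4812 against 1428 and 574, a log2 fold change of 2.02 ± 0.43 (SE) with adjusted p = 9.28e-04. Tet3 stood at 171 and 330.1 against 5849 and 3466, a log2 fold change of -4.18 ± 0.33 (SE) with adjusted p = 5.45e-08. Tet1 and Tet2 were therefore the higher and Tet3 the lower with cytokines, with no overlap between groups in any of the 3. Tet3 overlaps the gene B230319C09Rik.

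Histone-modifying repressors of germline genes showed smaller differences, with 10 of 15 higher, 4 lower and a median log2 fold change of 1.03. Members of the Polycomb complex PRC2 divided, since Ezh1 (2.19), Suz12 (1.95), Jarid2 (1.80) and Eed (1.39) were higher and Ezh2 (-0.60) was lower. Mga (1.49), L3mbtl2 (1.68), Pcgf6 (1.03) and Max (1.02), components of the variant complex PRC1.6 that binds E-boxes, were all higher. E2f6, another member of that complex, was lower at -1.22, as were the H3K9 methyltransferases Ehmt1 (-1.19) and Ehmt2 (-0.93), while Setdb1 was higher at 0.73. The levels of E2f6 were 389 and 329 with cytokines, 870.4 and 843 without and 610.5 and 570.3 in EpiLCs.

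Genes of the nervous system were higher in the cytokine-free aggregates. Over the lists of neural progenitors, proneural and Notch genes, and neurons, 52 of 59 members were lower with cytokines (28.6% of all genes were lower) and none was higher, and for 12 of the 52 the libraries with cytokines held at most 3 counts together. The neural progenitor list had 19 of 21 members lower and a median log2 fold change of -6.65. Its summed level was 1154 and 1190.5 with cytokines and 40542 and 51962 without, compared with 1989 and 2325 in EpiLCs. Nes, the intermediate filament nestin, stood at 259 and 212 with cytokines against 11282 and 16152 without, a log2 fold change of -5.82 ± 0.49 (SE) with adjusted p = 1.10e-07. Sox1, an early neuroectoderm factor, stood at 74.4 and 93.3 against 1204 and 1516, a log2 fold change of -3.98 ± 0.47 (SE) with adjusted p = 3.84e-06. Pax6, of dorsal and cortical progenitors, stood at 75.1 and 41.2 against 1562 and 954, a log2 fold change of -4.40 ± 0.46 (SE) with adjusted p = 1.07e-06. Pax3, of the dorsal neural tube, stood at 2.09 and 0 against 999 and 1510.1, a ratio of 1139.9 (95% counting interval 389.7 to 5530.3). Hes5, a Notch target that holds progenitors undifferentiated, had a log2 fold change of -8.76 and Irx3, of the neural plate behind the forebrain, of -6.65. Only the radial glia transporter Slc1a3 and the homeobox gene Gsx2 of this list did not pass the test, and Nkx2-2 had too few counts to be tested.

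Proneural factors, which drive progenitors into neurons, held at most 12.9 normalised counts with cytokines. Neurog2 stood at 0.695 and 0 with cytokines against 797 and 1912 without, a ratio of 3322 (95% counting interval 596 to 131263). The Notch ligands Dll1 (-5.55), Dll3 (-5.17) and Jag1 (-3.15) were lower, and the receptor Notch1 (-1.69) was lower as well. Notch2, Hes1 and Hey1, which many cell types express, did not pass the test, with Hes1 at 287 and 434 against 179 and 374. Leaving out either cytokine-free library brought 1 member of the list past the test in the higher direction.

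Genes of neurons were lower in 20 of 22 cases, with a median log2 fold change of -5.95. Tubb3, the neuronal β-tubulin, stood at 314 and 261 with cytokines and 17308 and 18374 without, a log2 fold change of -5.92 ± 0.40 (SE) with adjusted p = 1.13e-08. Map2, of dendrites, stood at 66.1 and 62.4 against 10636 and 5203, a log2 fold change of -6.90 ± 0.36 (SE) with adjusted p = 1.20e-09. Nefl, the light neurofilament chain, stood at 28.5 and 43.8 against 11321 and 4243, a log2 fold change of -7.70 ± 0.55 (SE) with adjusted p = 2.17e-08. Gap43, a growth cone protein, and Elavl3, an RNA-binding protein of neurons, had log2 fold changes of -9.45 and -5.38. The transmitter genes Gad2 (80.0 and 26.4 against 498 and 217) and Gad1 (97.3 and 127 against 375 and 111) differed less, and Gad1 did not pass the test. Elavl2, which germ cells also express, did not pass it either, at 1001 and 888 against 1859 and 874. Markers of neurons and of their progenitors were therefore both present in the cytokine-free aggregates.

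Genes of regional identity along the neural axis were lower with cytokines in 15 of 22 cases and higher in 1. The lower members included genes of the midbrain, hindbrain and spinal cord, among them Pax2 (0.695 and 3.22 against 1192 and 292, log2 fold change -8.42), Irx1 (-6.58), Meis1 (-6.06), Meis2 (-3.64) and Lmx1b (-3.57). Foxb1, of the caudal neural tube and hypothalamus, had no count with cytokines and stood at 296 and 169 without, at least 259-fold lower. The forebrain genes Six3 and Hesx1 were at 0.907 and 2.32 and 0.453 and 1.16 without cytokines and did not pass the test. Rax, of the eye field, passed it in the higher direction at a few counts (4.17 and 8.37 against 0.453 and 0), a call that was lost without the second library with cytokines, while 2 members were higher without the second cytokine-free library.

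The Hox genes split by position. The 4 anterior genes Hoxa2, Hoxb1, Hoxb2 and Hoxb3, which pattern the hindbrain, held the most counts among Hox genes without cytokines and were near 0 with them. Hoxb1 stood at 0 and 1.29 with cytokines and 562 and 269.8 without, a ratio of 718 (95% counting interval 198 to 5934). Hoxb2 stood at 1.39 and 4.5 against 922 and 850.0, a log2 fold change of -8.12 ± 0.64 (SE) with adjusted p = 1.10e-07, and Hoxa2 at 0.695 and 2.57 against 1056 and 841, a log2 fold change of -9.02 ± 0.60 (SE) with adjusted p = 1.06e-08. In all, 8 of 23 members were lower and 10 were higher, but none of the 10 exceeded 40.3 normalised counts in a library with cytokines. These counts compare with 29.6% higher and 28.6% lower among all genes tested. The median log2 fold change was 1.36 (1.26 at the bounds). The number of higher members fell to 5 without the second library with cytokines and to 6 without either cytokine-free library, and that of lower members to 5 without the first cytokine-free library. With the 4 libraries only, 3 of 14 were higher and 5 lower, and 1 of 7 was higher at a mean CPM (counts scaled to library size) of at least 1. The summed level over the list shows the weight of the anterior genes, at 127 and 187 with cytokines against 4821 and 3077 without. Hoxb9, of trunk identity, stood at 14.6 and 16.7 with cytokines and 0.453 and 0 without. Hoxb3 overlaps Hoxb4, and Hoxa3, Hoxa4 and Hoxa5 overlap each other, so their shares are uncertain.

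The cytokine-free libraries differed from each other much more than the libraries with cytokines did. Of genes with a mean of at least 100 normalised counts, 16.9% of 10512 were over 2-fold apart between the libraries without cytokines and 0.372% of 9943 between those with. Without cytokines, the 8 genes most shifted towards the first library were Peg13, Otp, Nkx6-1, Nnat, Gria2, Snhg11, Pcdh17 and Ntn1. Otp, a hypothalamic and hindbrain homeobox gene, stood at 2805 and 88, and Nkx6-1, of the ventral neural tube, at 1382 and 62.5. Gria2, a glutamate receptor subunit, stood at 973 and 73. Among those most shifted towards the second library were Ttr, Rspo1, Msx1, Zic1, Ptn, Kirrel2 and Adamts3. Ttr, of choroid plexus and liver, stood at 5.44 and 1331, Msx1, a BMP target of the dorsal midline, at 12.7 and 1182, and Zic1, of the dorsal neural tube, at 68.5 and 3909.5. The ventral gene Nkx6-1 and the neuronal gene Gria2 were thus higher in the first library and the dorsal genes Msx1 and Zic1 in the second. With cytokines Msx1 stood at 14.6 and 16.1, close to the first cytokine-free library, so that its difference rests on the second. For Nkx6-1 (4.87 and 11.6 with cytokines), Gria2 (0 and 0.643) and Zic1 (2.78 and 1.29) both cytokine-free libraries lay above both with cytokines.

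**Figure D3:**
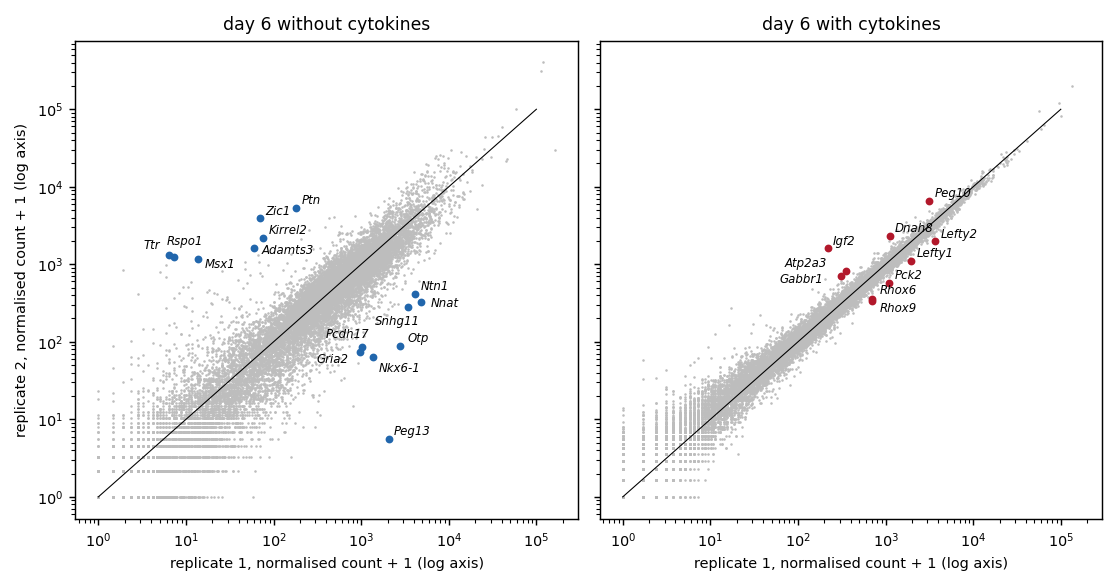
Normalised count plus 1 of the second library against the first for each gene tested except Rn45s, without cytokines (left) and with cytokines (right), both axes logarithmic. Named points are among the genes of mean 500 or more that differ most between libraries of a group, and the cloud is wide on the left and narrow on the right.

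With cytokines, the largest shifts were smaller. Igf2, a growth factor expressed from 1 parental allele, stood at 217 and 1602, the widest ratio of that group. Dnah8, Peg10, Gabbr1 and Atp2a3 were also higher in the second library, with Peg10, an imprinted retrotransposon-derived gene, at 3163 and 6627. Lefty1, Lefty2, Rhox6, Rhox9 and Pck2 were higher in the first, with Lefty2 at 3696 and 1974.

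Many markers of other lineages were at low levels in both groups, but some, such as Cxcr4, Epcam and Pecam1, were high in 1 group. The mesoderm list had 8 of 19 members higher with cytokines, 1 lower and 10 not past the test. Of all genes tested, 29.6% were higher and 28.6% lower. The summed level of the list was 1237 and 1559.8 against 767 and 718. Eomes, of early mesoderm and trophoblast, stood at 458 and 460.1 with cytokines against 15.4 and 45.2 without, a log2 fold change of 4.09 ± 0.37 (SE) with adjusted p = 2.74e-07, and Tcf15, of somites and primed cells, at 565 and 385 against 103 and 73, a log2 fold change of 2.45 ± 0.42 (SE) with adjusted p = 1.52e-04. Gata4 (20.2 and 36 against 0.453 and 0) and Hand1 (11.8 and 39.3 against 0.453 and 0), of heart and extraembryonic mesoderm, passed the test at no more than 39.3 normalised counts, as did Hand2 (2.78 and 19.9 against 0 in both libraries). Col1a1, Pdgfra and Kdr, of mesenchyme and vessels, did not pass it. Mesp1 and Msgn1, of nascent mesoderm, had too few counts to be tested. Without the second library with cytokines 5 members were higher and 4 lower, and none was lower without the first library with cytokines or the second without. With the 4 libraries only, 4 of 14 were higher and none lower, and 2 of 9 were higher at a mean CPM of at least 1.

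Of the endoderm list, 3 of 13 members were higher and 5 lower, compared with 29.6% and 28.6% of all genes tested, and 2 of 9 were lower when only the 4 libraries compared were fitted. The summed level was 407 and 418 with cytokines against 2352 and 3274 without. Most of the cytokine-free sum came from Cxcr4, also in the PGC specification list, at 2041 and 1803, and from Ttr, at 5.44 and 1331, and the other 14 members summed to 194 and 252 with cytokines against 306 and 140 without, with groups that overlapped. Hhex, which germ cells, endoderm and ESC subsets can express, stood at 91.1 and 97.8 with cytokines against 1.81 and 1.16 without, a log2 fold change of 5.82 ± 0.53 (SE) with adjusted p = 2.53e-07. The endoderm factors Gata6 (48 and 72.1 against 3.63 and 0) and Hnf4a (8.34 and 10.3 against 0.453 and 0) were higher at lower levels, while Sox17 stood at 4.87 and 7.08 against 3.17 and 2.32 and did not pass the test. Alb and Afp, of liver, had no count in the 4 libraries. Shh, also a gene of the floor plate, had no count with cytokines and stood at 156 and 33.6 without, at least 122-fold lower with cytokines. The trophoblast and surface ectoderm list had 8 of 13 members higher and none lower, with a median log2 fold change of 3.67 (2.13 at the bounds) and a summed level of 3139 and 3270.2 against 728 and 474, though 1 member was lower without the second library with cytokines and 2 without the second cytokine-free library. Epcam, an epithelial gene of ESCs and germ cells, stood at 1582 and 1525 against 4.53 and 35.9, Krt7, a keratin of simple epithelia, at 189 and 125 against 0 and 3.47, and Cdx2, of trophectoderm, stood at 53.5 and 19.9 against 0.907 and 0. Krt5, another of the higher members, held only 2.09 and 1.93 against 0 in both libraries. Gata3 (17.4 and 81.1 against 331 and 19.7) and Gata2 (106 and 122 against 323 and 16.2) did not pass the test. Neither did Krt8, Krt14 and Krt18, so the list did not rise as a whole. Tpbpa, of the placenta, had no count in the 4 libraries.

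Blood and endothelium genes were higher in 3 and lower in 2 of 8 cases (lower in 1 without the first and in 4 without the second cytokine-free library), and Pecam1, which ESCs and PGCs share with endothelium, stood at 2801 and 2553 against 28.6 and 9.26, a log2 fold change of 7.01 ± 0.47 (SE) with adjusted p = 1.21e-08. Tek, an angiopoietin receptor, stood at 103 and 127 against 2.27 and 2.32, and the blood factors Lmo2 and Tal1 were lower, at 4.17 and 12.2 against 101 and 86.9 and 2.78 and 6.43 against 341 and 10.4. The adult globin gene Hba-a1 had no count, and the embryonic globin genes Hba-x and Hbb-y stood at 81.1 and 2.32 and at 67.1 and 2.32 in the cytokine-free libraries, too uneven to be tested.

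The shares of all genes tested were 29.6% higher and 28.6% lower. Beside these are to be read the counts of neural crest, glial and retina genes, and those of the blood and endothelium genes above. Of neural crest genes, 5 of 14 were lower and 3 higher. Ednrb, an endothelin receptor, stood at 9.04 and 5.79 with cytokines against 3896 and 2474 without, a log2 fold change of -8.69 ± 0.54 (SE) with adjusted p = 5.24e-09. Tfap2b, an AP2 factor of crest and dorsal neurons, stood at 0.695 and 0.643 against 283 and 1566, a ratio of 964 (95% counting interval 266 to 7963). Sox10, Snai2 and Twist1, which define migrating crest, stood at no more than 38.2 normalised counts in any of the 4 libraries and did not pass the test. Erbb3, a neuregulin receptor, went the other way, at 3975 and 3387 against 19.5 and 22, a log2 fold change of 7.53 ± 0.33 (SE) with adjusted p = 4.26e-10, as did Mitf, of pigment cells, at 142 and 208 against 23.1 and 15.1. Of glial genes, 3 of 10 were higher and 1 lower, and 1 of 9 was higher with the 4 libraries only. Their median log2 fold change was 0.56, and 0.29 without the second library with cytokines. The astrocyte genes Gfap and Aqp4 stood at 4.87 and 7.72 against 1.36 and 1.16 and at 0 and 0.643 against 25.4 and 5.79. Not all higher members were at such low levels, with Aldh1l1 at 172 and 246 against 48.1 and 116. Among retina genes, 3 of 13 were higher and 2 lower (1 and 1 without the second library with cytokines, 1 lower without the first cytokine-free library, and none of 5 lower with the 4 libraries only), and the photoreceptor genes Crx and Rcvrn held at most 1.39 normalised counts in a library. Rlbp1, of Müller glia and pigment epithelium, stood at 66.1 and 62.4 against 3.17 and 0, while Nrl was among the lower members at 0.695 and 0 against 4.99 and 2.32.

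Of the pathways the cytokines act on, the BMP list was mostly lower with cytokines, with 14 of 22 members lower, 4 higher and a median log2 fold change of -1.53. Among ligands, Bmp4 was higher at 385 and 355 against 5.89 and 15.1, a log2 fold change of 5.36 ± 0.48 (SE) with adjusted p = 2.02e-07, and Bmp7 was lower (-1.50). Among receptors, Bmpr1b was lower at 5.56 and 8.37 against 474 and 677, a log2 fold change of -6.30 ± 0.43 (SE) with adjusted p = 1.39e-08, and Bmpr1a at -0.97. The signal transducers Smad1 (-1.01) and Smad5 (-1.60) were lower, and the inhibitory Smad7 was higher at 4372 and 3915 against 490.1 and 338, a log2 fold change of 3.36 ± 0.27 (SE) with adjusted p = 7.70e-08. The antagonists Nog (-5.18) and Chrd (-2.51) were lower. None of the 4 Id genes, direct targets of BMP, was higher with cytokines. Id2 stood at 63.3 and 102 against 937 and 1889, a log2 fold change of -4.05 ± 0.61 (SE) with adjusted p = 4.45e-05. Id1 stood at 298 and 254 against 383 and 3000.4 and Id3 at 484 and 402 against 495 and 4127, both lower in the test at -2.57 and -2.34, but without the second cytokine-free library these values were -0.42 and -0.11 and no longer passed it. Without the same library the median of the list was -0.71, and 2 members were higher without the first library of either group.

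The LIF and STAT3 list had 11 of 13 members higher and none lower, with a median log2 fold change of 2.67. Among receptors, Lifr stood at 2575 and 2903 with cytokines against 915 and 383 without, a log2 fold change of 2.11 ± 0.43 (SE) with adjusted p = 6.39e-04, and Il6st (gp130) at 2317 and 2316 against 653 and 841, a log2 fold change of 1.67 ± 0.20 (SE) with adjusted p = 4.30e-06. Stat3 itself, at 681 and 695 against 596 and 373, did not pass the test. Of its targets, the feedback inhibitor Socs3 stood at 949 and 973 against 171 and 102, a log2 fold change of 2.83 ± 0.31 (SE) with adjusted p = 1.48e-06, and the kinase gene Pim1 at 4032 and 3158 against 355 and 558, a log2 fold change of 3.03 ± 0.27 (SE) with adjusted p = 2.43e-07. Bcl3, another target, stood at 286 and 242 against 4.08 and 0. Klf4 and Tfcp2l1, also naive genes, are counted in both lists.

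Among receptors of SCF and EGF, Kit and Erbb3 were higher and Erbb2 (-1.67), Erbb4 and the ligand genes Kitl (-2.43) and Nrg1 were lower. Erbb4 stood at 0.695 and 1.29 with cytokines against 636 and 791 without, a ratio of 678 (95% counting interval 232 to 3288). Nrg1 stood at 19.5 and 43.8 against 335 and 119, with a log2 fold change of -2.81 that was -1.87 without the first cytokine-free library. Egfr, the receptor of the EGF added, stood at 32.7 and 68.2 against 16.3 and 78.7 and did not pass the test. The ligand Kitl thus differed in the direction opposite to its receptor Kit.

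In the FGF and ERK list 9 of 17 members were higher and 4 lower, compared with 29.6% and 28.6% of all genes tested. The feedback genes of ERK signalling were among the higher, with Spry4 at 1244 and 1004 against 22.2 and 82.2, a log2 fold change of 4.61 ± 0.46 (SE) with adjusted p = 6.77e-07, and Dusp6 at 1352 and 1233 against 341 and 610.3, a log2 fold change of 1.49 ± 0.24 (SE) with adjusted p = 9.22e-05. The receptors Fgfr2 (-2.81) and Fgfr3 (-4.43), which neural progenitors express, were lower, as was the ligand Fgf15, at 18.8 and 30.2 against 84.8 and 973.

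The Wnt list had 14 of 21 members lower and 2 higher, with a median log2 fold change of -2.44 (9 lower, 4 higher and a median of -1.06 without the second cytokine-free library, 1 higher without the first library with cytokines, and 8 of 20 lower and 1 higher with the 4 libraries only). Of receptors, Fzd3 stood at 164 and 136 against 10256 and 6693, a log2 fold change of -5.78 ± 0.49 (SE) with adjusted p = 1.22e-07, and of secreted inhibitors Sfrp2 at 224 and 273 against 5922 and 3458, a log2 fold change of -4.20 ± 0.27 (SE) with adjusted p = 7.71e-09. Tcf7, a transcription factor of the pathway, was higher at 2.60. The ligand gene Wnt7a stood at 0.695 and 0 against 765 and 149, a ratio of 1770.3 (95% counting interval 317 to 69963). Wnt1 and Wnt3a, ligands of the dorsal midline, rested on the second cytokine-free library, with 4.99 and 976 and 0.907 and 835.

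Retinoic acid genes were higher in 4 and lower in 7 of 14 cases, compared with 29.6% and 28.6% of all genes tested. The binding protein genes Crabp1 and Crabp2 were lower, with Crabp2 at 20.9 and 31.5 with cytokines and 7122 and 8221 without, a log2 fold change of -8.14 ± 0.43 (SE) with adjusted p = 1.24e-09. Cyp26b1, which degrades retinoic acid, stood at 2.09 and 19.9 against 5879 and 1209, a log2 fold change of -8.25 ± 0.86 (SE) with adjusted p = 9.78e-07. The receptor gene Rarg was higher at 1337 and 1447 against 41.7 and 34.7, a log2 fold change of 5.20 ± 0.24 (SE) with adjusted p = 6.20e-10, and Rarb, a target of the pathway, was lower at -2.24. Aldh1a2 and Aldh1a3, which make retinoic acid, were higher at low levels, 24.3 and 28.3 against 0.907 and 0 and 11.1 and 18.7 against 2.27 and 1.16. Cyp26a1, of the same family as Cyp26b1, was also higher at low levels, at 6.95 and 20.6 against 1.81 and 6.95. The receptor genes Rarg and Rarb thus differed in direction, as did Cyp26a1 and Cyp26b1, while Crabp1 and Crabp2 were both lower.

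**Figure D4:**
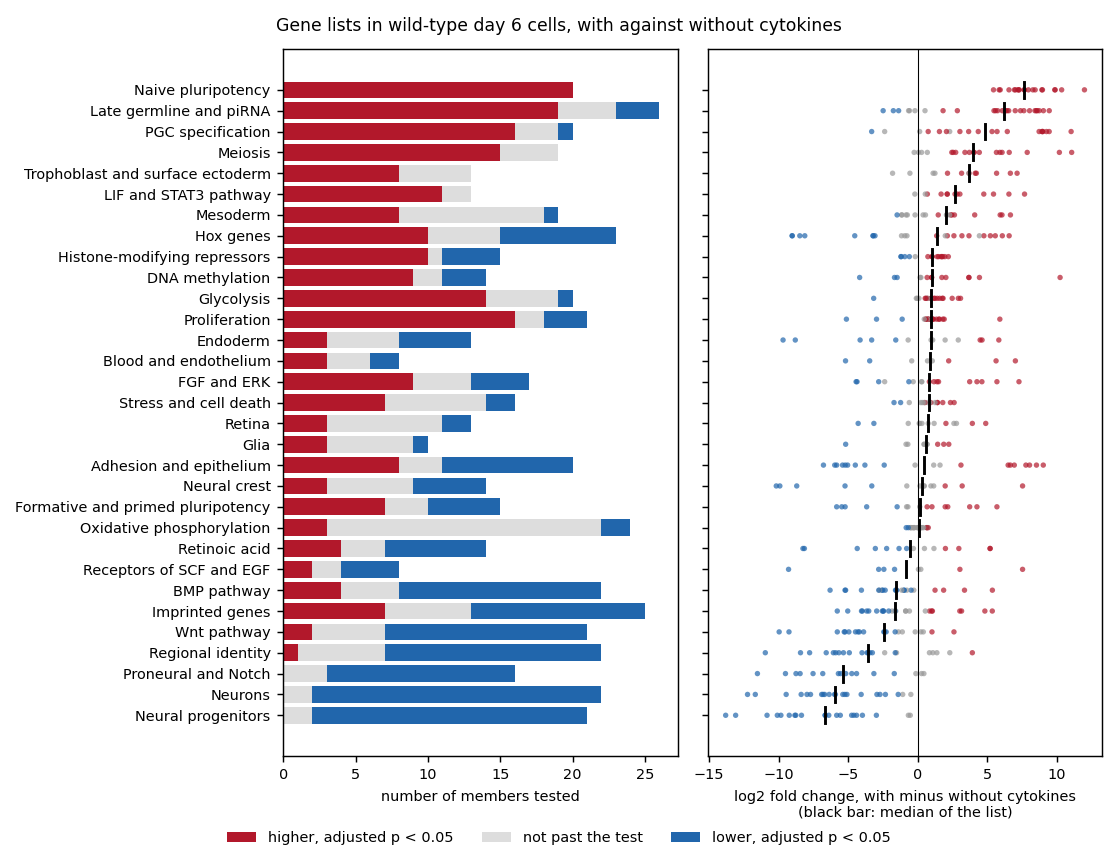
Left, number of tested members of 31 gene lists that were higher (red), not past the test (grey) or lower (blue) with cytokines. Right, the log2 fold change of each member and the median of the list (black bar), ordered by the median, from -6.65 for neural progenitors to 7.65 for naive pluripotency.

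Of adhesion and epithelium genes, 8 of 20 were higher, 9 lower and 3 not past the test. Among all genes tested, 29.6% were higher and 28.6% lower. Cdh1 (E-cadherin) stood at 2949 and 3721 with cytokines against 23.6 and 34.7 without, a log2 fold change of 6.93 ± 0.28 (SE) with adjusted p = 2.39e-10, and Esrp1, an epithelial splicing factor, at 1434 and 1295 against 2.72 and 2.32, a log2 fold change of 9.01 ± 0.46 (SE) with adjusted p = 1.06e-09. Cdh3 (P-cadherin) stood at 1867 and 1688 against 2.27 and 10.4, and the claudins Cldn4 (8.03), Cldn6 (7.76) and Cldn7 (6.49) were higher too. Vim (vimentin) stood at 502 and 709 against 15789.6 and 25109.5, a log2 fold change of -5.04 ± 0.46 (SE) with adjusted p = 2.80e-07, and Zeb2, a repressor of Cdh1, at 14.6 and 17.4 against 2097 and 1529.8, a log2 fold change of -6.77 ± 0.40 (SE) with adjusted p = 3.32e-09. Snai1 and Snai2, of epithelial-mesenchymal transition, did not pass the test. In EpiLCs Cdh1 stood at 10331 and 11249, above both day 6 groups.

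Imprinted genes, whose parental marks are erased in the germline, were lower in 12 of 25 cases and higher in 7, with a median log2 fold change of -1.63 (-0.12 without the first cytokine-free library). Cdkn1c, an inhibitor of the cell cycle, stood at 150.2 and 199 with cytokines against 10549.5 and 9202 without, a log2 fold change of -5.78 ± 0.33 (SE) with adjusted p = 2.92e-09. Gnas, a G protein subunit whose locus has overlapping transcripts, stood at 1756 and 1905 against 14476 and 14656, a log2 fold change of -2.95 ± 0.19 (SE) with adjusted p = 8.74e-09, and Ndn (necdin, of postmitotic neurons) was lower at -3.52. H19, a noncoding RNA, was higher at 1198 and 1669 against 292 and 62.5, a log2 fold change of 3.02 ± 0.84 (SE) with adjusted p = 0.00618 that was 4.55 without the first cytokine-free library. Phlda2, a placental growth regulator, was higher at 135 and 134 against 0.453 and 9.26, a log2 fold change of 5.35 ± 0.62 (SE) with adjusted p = 3.27e-06. The transporter gene Slc22a18 and the transcription factor gene Ascl2, of the same domain as Cdkn1c and Phlda2, stood at 25.7 and 31.5 against 1.36 and 0 and 32 and 34.7 against 5.89 and 0. Meg3, a long noncoding RNA of the Dlk1 locus, stood at 488 and 609 against 5659 and 586, and only the first cytokine-free library lay apart from the rest.

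Of proliferation genes, 16 of 21 were higher and 3 lower with cytokines, with a median log2 fold change of 0.97. The number higher was 8 when only the 4 libraries were fitted and 11 when libraries were scaled by their size alone, with 3 lower in each case. Top2a, a topoisomerase of dividing cells, stood at 16678 and 15886 against 7708 and 9407, a log2 fold change of 0.97 ± 0.20 (SE) with adjusted p = 7.50e-04, and Bub1, of the spindle checkpoint, at 3011 and 3001 against 680.5 and 979.7, a log2 fold change of 1.90 ± 0.25 (SE) with adjusted p = 1.26e-05. Ccnd2, a cyclin of neural progenitors, was lower at 316 and 228 against 5002 and 14532, a log2 fold change of -5.13 ± 0.59 (SE) with adjusted p = 2.63e-06, and so were Ccnd1 (-2.96) and the inhibitor Cdkn1b (-1.12). Cdkn2a stood at 183 and 185 against 1.81 and 5.79, a log2 fold change of 5.89 ± 0.41 (SE) with adjusted p = 1.72e-08, and at 288 and 272 in EpiLCs. The D-type cyclins differed in direction, since Ccnd3 was higher, at 4023 and 3434 against 947 and 2087.

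Of glycolysis genes, 14 of 20 were higher and 1 lower, with a median log2 fold change of 0.97. When only the 4 libraries were fitted, 4 were higher, and 10 when libraries were scaled by their size alone. Of oxidative phosphorylation genes 3 of 24 were higher, 2 lower and 19 not past the test, with a median of 0.05. The oxidative phosphorylation list followed single libraries, since 13 members were higher and none lower without the second cytokine-free library, 9 were lower and none higher without the first, and none was higher or lower without the first library with cytokines or lower without the second. None of its members passed the test with the 4 libraries only. Slc2a3, a glucose transporter, stood at 23479.8 and 28019 with cytokines against 5155 and 1134 without, a log2 fold change of 3.07 ± 0.61 (SE) with adjusted p = 4.86e-04, and the enolase gene Eno1 at 11974 and 11248 against 6021 and 4653, a log2 fold change of 1.16 ± 0.21 (SE) with adjusted p = 1.96e-04. Eno2, the neuronal enolase, was the glycolysis member lower with cytokines, at 33.4 and 65.6 against 644 and 269.8, a log2 fold change of -3.17 ± 0.43 (SE) with adjusted p = 1.48e-05. Of stress and cell death genes, 7 of 16 were higher and 2 lower (3 and 1 with the 4 libraries only), compared with 29.6% and 28.6% of all genes tested. The median log2 fold change of this list was 0.78, and lay between 0.59 and 0.93 when 1 of the 4 libraries was left out. Gadd45a (2.35) and Mdm2 (1.42), targets of p53, were higher, and the immediate early gene Fos stood at 191 and 394 against 78.4 and 15.1, while Bax and Cdkn1a did not pass the test. The part of handling, as in a sort, in these genes was not tested.

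The difference between the cultures was then set against that of the same pair of cultures from TKO cells. TKO cells were collected whole in both, so the contrast also sets a sorted group beside an unsorted one. In TKO cells the deletions removed the coding regions, and Tet1 stood at 504 to 998 normalised counts over the 4 day 6 TKO libraries, Tet2 at 186 to 304 and Tet3 at 63.8 to 252, which can come from untranslated exons that remain. The wild-type difference exceeded that of TKO cells by over 2 on the log2 scale, with an adjusted p below 0.05, for 1960 genes (11.8%), and lay below it by as much for 1748 (10.5%). Of the 2105 genes higher in wild-type cells 1675 were among the former, and of the 2329 lower genes 1524 were among the latter. The wild-type difference is part of this contrast. Genes chosen for a large wild-type difference were therefore favoured, and the overlap is no separate support.

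By list, the difference was greater in wild-type cells for 20 of 20 naive genes, 15 of 20 PGC specification genes, 18 of 26 late germline genes and 15 of 19 meiosis genes. It was more negative for 15 of 21 neural progenitor, 9 of 16 proneural and 11 of 22 neuron genes. Dppa2 had the largest positive interaction among genes of at least 100 normalised counts. It stood at 1019.6 and 1126 in TKO cells with cytokines and 1074 and 1237 without, whereas wild-type cells without cytokines held no count. Dppa3 stood at 228 and 411 and 422 and 317 in TKO cells, where the cultures overlapped, and Lefty1 at 1357 and 819 and 2466 and 2922. Slco4c1 and Panct2, which overlap each other, followed the same pattern. Dppa2, Dppa3 and Lefty1 were thus present in TKO cells of both cultures.

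In the other direction, Fabp7 stood at 5.04 and 0 in TKO cells with cytokines and 10.8 and 1.26 without, against 3309 and 9819 in wild-type cells without cytokines. Neurog2 stood at 1.68 and 0 and 1.08 and 0 in TKO cells. Uncx and Otp, of developing neurons, were also close to 0 in TKO cells of both cultures, with Otp at 6.72 and 1.15 and 2.15 and 0. These neural genes were high only in the wild-type aggregates without cytokines among the 8 day 6 libraries, and Otp mostly in the first of these. Fitted log2 values for genes with a group at or near 0 depend on the small count that the fit adds and are no measure of size.

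**Figure D5:**
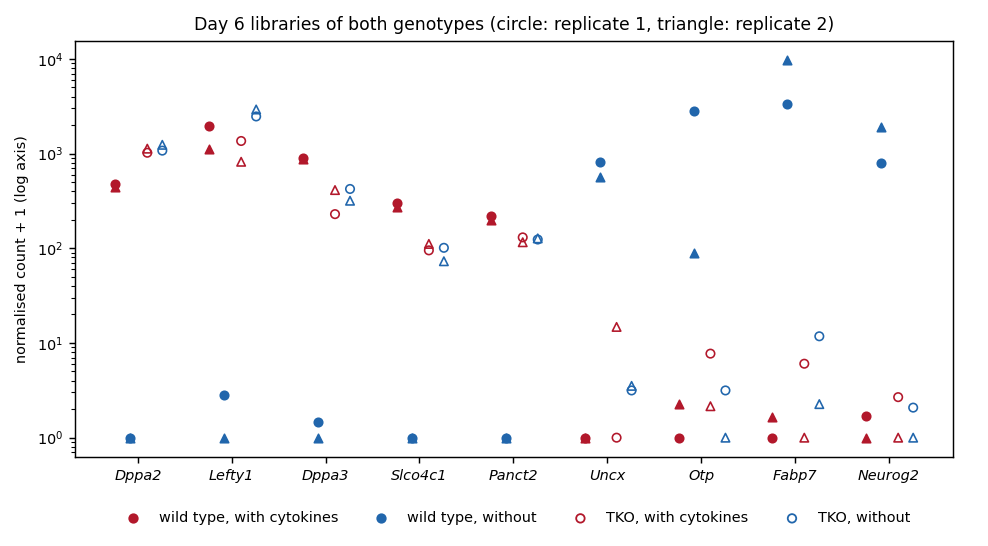
Normalised count plus 1 (log axis) in the 8 day 6 libraries of both genotypes for 5 genes of large positive and 4 of large negative interaction. Filled marks are wild-type and open marks TKO cells, red with and blue without cytokines, and the filled blue marks stand apart from the other 3 groups for all 9 genes.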

How the data were processed

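RNA was sequenced from E14Tg2a cells in 18 libraries, 2 in each of 9 groups. Per the labels and the study's methods, the authors trimmed reads (Trim Galore 0.5.0, cutadapt 1.16), aligned them to mm10 (STAR 2.7.1a), and deposited whole-number counts per gene (featureCounts, Subread 1.5.2), summed over exons of each gene. Counting ignored strand, although the kit kept it, so that overlapping genes share reads. The table held 25272 rows, of which 33 named no gene and were left out. Here edgeR 4.0.16 (R 4.3.3) fitted 9 group means to all 18 libraries with TMM factors, filterByExpr and quasi-likelihood tests, with p-values adjusted by the Benjamini-Hochberg method over 16582 genes. An approximate SE was taken as the fold change on the log2 scale over the root of the F statistic. Normalised counts are counts over DESeq2 1.42.0 size factors, with no correction for length, so that levels of different genes are not on 1 scale. Folds from a group without counts are bounds set at 3 counts over the group, and intervals for 1 to 3 counts are exact at 95%, covering counting error only. With 2 libraries in a group no exact permutation test could pass 0.05.

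The gene lists and the comparison were chosen with earlier results of these data known. Named genes were the 12 highest and 12 lowest log2 fold changes at a mean of at least 100 normalised counts, the 5 largest interactions in each direction, the genes most different between libraries of a group at a mean of at least 500, Rn45s, and from each list the 2 members of largest change, the most abundant called member, up to 4 called members against its majority, and members that define it. Other members were named after their values were seen, and some genes that the rule names are not reported here. The scripts were tested on simulated data. Deviations of same-numbered libraries had r = -0.156 between the wild-type day 6 groups, and from -0.139 to 0.153 between the other pairs of day 6 groups, so replicate numbers were taken as names only. Alternatives were other scaling, filters, tools, limits and sets of libraries. Promoter sequences are from RefSeq (GRCm38.p6).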

Additional observations from a re-analysis of the deposited data

Results flagged for a closer look

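The difference between cultures differed between genotypes by over 2 on the log2 scale for 3708 genes, tested as an interaction in edgeR's quasi-likelihood test. The fitted interaction was 12.06 for Dppa2, 11.43 for Lefty1, 11.20 for Dppa3, 11.02 for Slco4c1 and 10.84 for Panct2. In the other direction it was -14.22 for Uncx, -12.33 for Otp, -12.25 for Fabp7 and -11.74 for Neurog2. At least 1 group stood at or near 0 for each of these genes, and Otp was high in the first wild-type library without cytokines (2805 and 88). The wild-type cells with cytokines were the only sorted group among the 4, and genotype and sort cannot be told apart on that side.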

How the results depend on the processing

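With another limit on size, 3531 genes were higher and 3689 lower beyond a log2 fold change of 1, and 4916 and 4743 with no limit. Under the other settings the counts stayed within 1.5 times the 2105 higher and 2329 lower genes. Higher genes numbered from 1436, at a mean CPM of at least 1, to 2215, and from 1949 to 2215 when 1 library was left out. Lower genes numbered from 2021 to 2700, and from 2050 to 2579 when 1 library was left out. Scaling by library size alone shifted the median of all genes by -0.28 and lowered the share of higher genes among the calls from 47.5 to 40.1%. Fitting only the 4 libraries gave 1726 and 2149 genes and moved the member counts of several lists by over 1.5 times, with 4 and not 14 glycolysis genes higher, 8 and not 16 proliferation genes higher and 8 and not 14 Wnt genes lower, and DESeq2 gave 2030 and 2301.

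With the replicate number as a block, 2111 genes were higher, 2299 lower and 3676 had an interaction, and 405 list members passed the test against 406. No named gene lost its call under the block. With crossed numbers, an alternative chosen after seeing the data, the counts were 2119 and 2310. Interactions numbered 3375 to 3976 over all settings tried. Of 137 named genes with a printed fold change, 131 kept direction and side of the threshold under all 12 settings, none reversed, and the other 6 lost the call under at least 1 setting, Ezh2 with 4 libraries only and Lin28a, Id1, Id3, Rn45s and Tdrd7 without 1 library. Ezh2 was not alone in this, since 5 of these 6 genes lost the call with the 4 libraries only. RLE factors and library size alone each took it from 1 gene. The medians of 10 of the 32 lists changed sign under some setting, those of formative, Hox, neural crest, mesoderm, endoderm, blood, SCF and EGF, retinoic acid, adhesion and oxidative phosphorylation genes. Depth limits genes under a few counts, most of all in the second cytokine-free library of 13195593 counts.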
